A study of Mus musculus with 5 samples.

Results

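The nuclear genes of the mitochondrial respiratory chain and of the ATP synthase were followed in murine bone marrow (BM) plasma cells (PCs). Genes were chosen by symbol alone: Nduf followed by a, b, c, s or v and a digit for complex I, Sdha to Sdhd for complex II, Uqcr symbols and Cyc1 for complex III, Cox followed by 4 to 8 for complex IV, and Atp5 symbols for complex V. This gave 82 of the 18193 genes that have a probe set of their own on the array, with 35 in complex I, 4 in complex II, 9 in complex III, 17 in complex IV and 17 in complex V. A gene was read from its brightest probe set over the 5 arrays. Of the 82 genes, 81 reached an intensity of 50 on at least 2 arrays and were tested. The exception was Cox7b2, a testis isoform of complex IV, which lay below 50 on each array.

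The arrays compare PCs directly after isolation (ex vivo, 2 arrays, 1 in each of 2 experiments) with PCs kept for 3 days in culture (cultured, 1 array in experiment 1 and 2 arrays in experiment 2). All PCs came from the BM of C57BL/6J mice that had been primed and boosted with the hapten NP on chicken gamma globulin (NP-CGG in the study's methods, spelled NP-CCG in the labels) in adjuvant, and were enriched magnetically as CD138high cells after B220 and CD49b expressing cells had been removed. Mouse age is not given. Cultured PCs were kept at physiological oxygen with APRIL, a cytokine that binds the PC receptor BCMA, on ST2 cells, a BM stromal cell line. They were then sorted by flow cytometry. The paper proposes that ex vivo PCs had spent longer in normoxia during isolation. Oxygen, co-culture, APRIL, time and the sort therefore cannot be told apart. The study's methods call wells within an experiment technical replicates and experiments on different days biological ones. By that usage the 2 cultured arrays of experiment 2 are technical replicates, although the sources do not say how these arrays were made, and p-values may measure technical spread in part.

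The respiratory chain hands electrons from NADH (complex I) and succinate (complex II) through complex III to oxygen at complex IV. Complexes I, III and IV pump protons across the inner mitochondrial membrane, and complex V, the ATP synthase, lets them flow back to make ATP. Some subunits are encoded in the mitochondrial genome, but the genes described here lie in the nucleus and their proteins are imported. Antibody secretion by PCs draws on ATP.

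Identity and RNA differed between the arrays in ways that touch every value given here. The 6 PC markers (Sdc1, Prdm1, Xbp1, Irf4, Tnfrsf17 and Jchain) were above 50 on each array, and their summed intensity lay between 41156 and 48218. Each cultured array had a lower sum than the ex vivo array of its experiment. Compared in the same way, 4 of the 6 markers were lower on every cultured array and 0 were higher. The median log2 difference of the PC markers was -0.17 for experiment 1 and -0.12 and -0.14 for experiment 2. Only Tnfrsf17 lay below both ex vivo arrays on each cultured array. Whether the lower PC markers bear on the respiratory genes was not tested. All 10 stromal markers were higher on each cultured array than on either ex vivo array, with summed intensities of 711 and 539 ex vivo against 5040, 14744 and 15087 in culture. Of 8 macrophage markers, 6 were lower on each cultured array and 1 was higher, and the summed intensity ran from 1440 to 1859 with no gap between the groups. Of the other lists, 4 of 6 neutrophil markers and 2 of 3 T and NK cell markers were lower on each cultured array. Only 3 neutrophil markers and 1 T and NK cell marker reached 50 on at least 2 arrays, and of these 2 and 0 were lower on each cultured array. The T and NK cell marker that did so changed by -0.23 in experiment 1 and by 0.23 and 0.45 in experiment 2. None of the B cell and erythroid markers lay to one side. ST2 cells and macrophages have a respiratory chain of their own, and the part of these cells in the results was not tested. In bulk RNA, fewer cells of a type and less RNA per cell cannot be told apart.

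No gene of the 5 complexes passed the test for culture. With limma's test across 30477 probe sets, 0 of 81 genes reached an adjusted p under 0.05, 4 (4.94%) had an unadjusted p under 0.05 against 6.69% of all tested genes, and the smallest adjusted p was 0.567, for Ndufb3. Across all 13578 tested genes this fit called 8, or 0.0589%. With the experiment as a block, which compares cultured with ex vivo PCs of the same experiment, it called 236, or 1.74%, and again 0 of the 81 genes, of which 14 (17.3%) had an unadjusted p under 0.05, the same share as the 17.3% of all tested genes. The smallest adjusted p with the block was 0.0691, for Ndufb1. The fitted change lay within 0.5 of zero on the log2 scale for 76 genes and at or below -0.5 for the other 5. The 95% confidence interval stayed between -1 and 1 for 78 of 81 genes. A missed threshold therefore leaves room for smaller changes in most genes. Standard errors with the block ran from 0.10 to 0.20 with a median of 0.13.

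Small differences in these genes were more often negative than positive. Cultured minus ex vivo within an experiment gives 3 changes per gene on the log2 scale, listed throughout as 1 from experiment 1 and 2 from experiment 2, and the latter share their ex vivo array. All 3 changes were below zero for 40 of the 81 tested genes, against 29.7% of all tested genes, and all 3 were above zero for 6, against 18.9%. The 6 genes were Sdhc, Cox4i2, Cox5a, Cox7a2l, Atp5g1 and Atp5g2. Each cultured array lay below both ex vivo arrays for 15 genes, against 13.0% of all tested genes, and each cultured array lay above both for 0, against 7.79%. The 15 were Ndufa4, Ndufb1, Ndufb2, Ndufb3, Ndufb7, Ndufc1 and Ndufc2 of complex I, Sdha of complex II, Uqcr11 and Uqcrc2 of complex III, Cox8c of complex IV, and Atp5g3, Atp5j2, Atp5mpl and Atp5pb of complex V. Over the 82 genes the median change was -0.17 in experiment 1 and -0.11 and -0.08 in experiment 2, beside -0.05, -0.02 and -0.04 over all tested genes. Without the cultured array of experiment 1, the genes with every remaining change above zero numbered 14 (17.3%), against 31.8% of all tested genes in that setting. No test was made over the genes as a group.

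**Figure D1:**
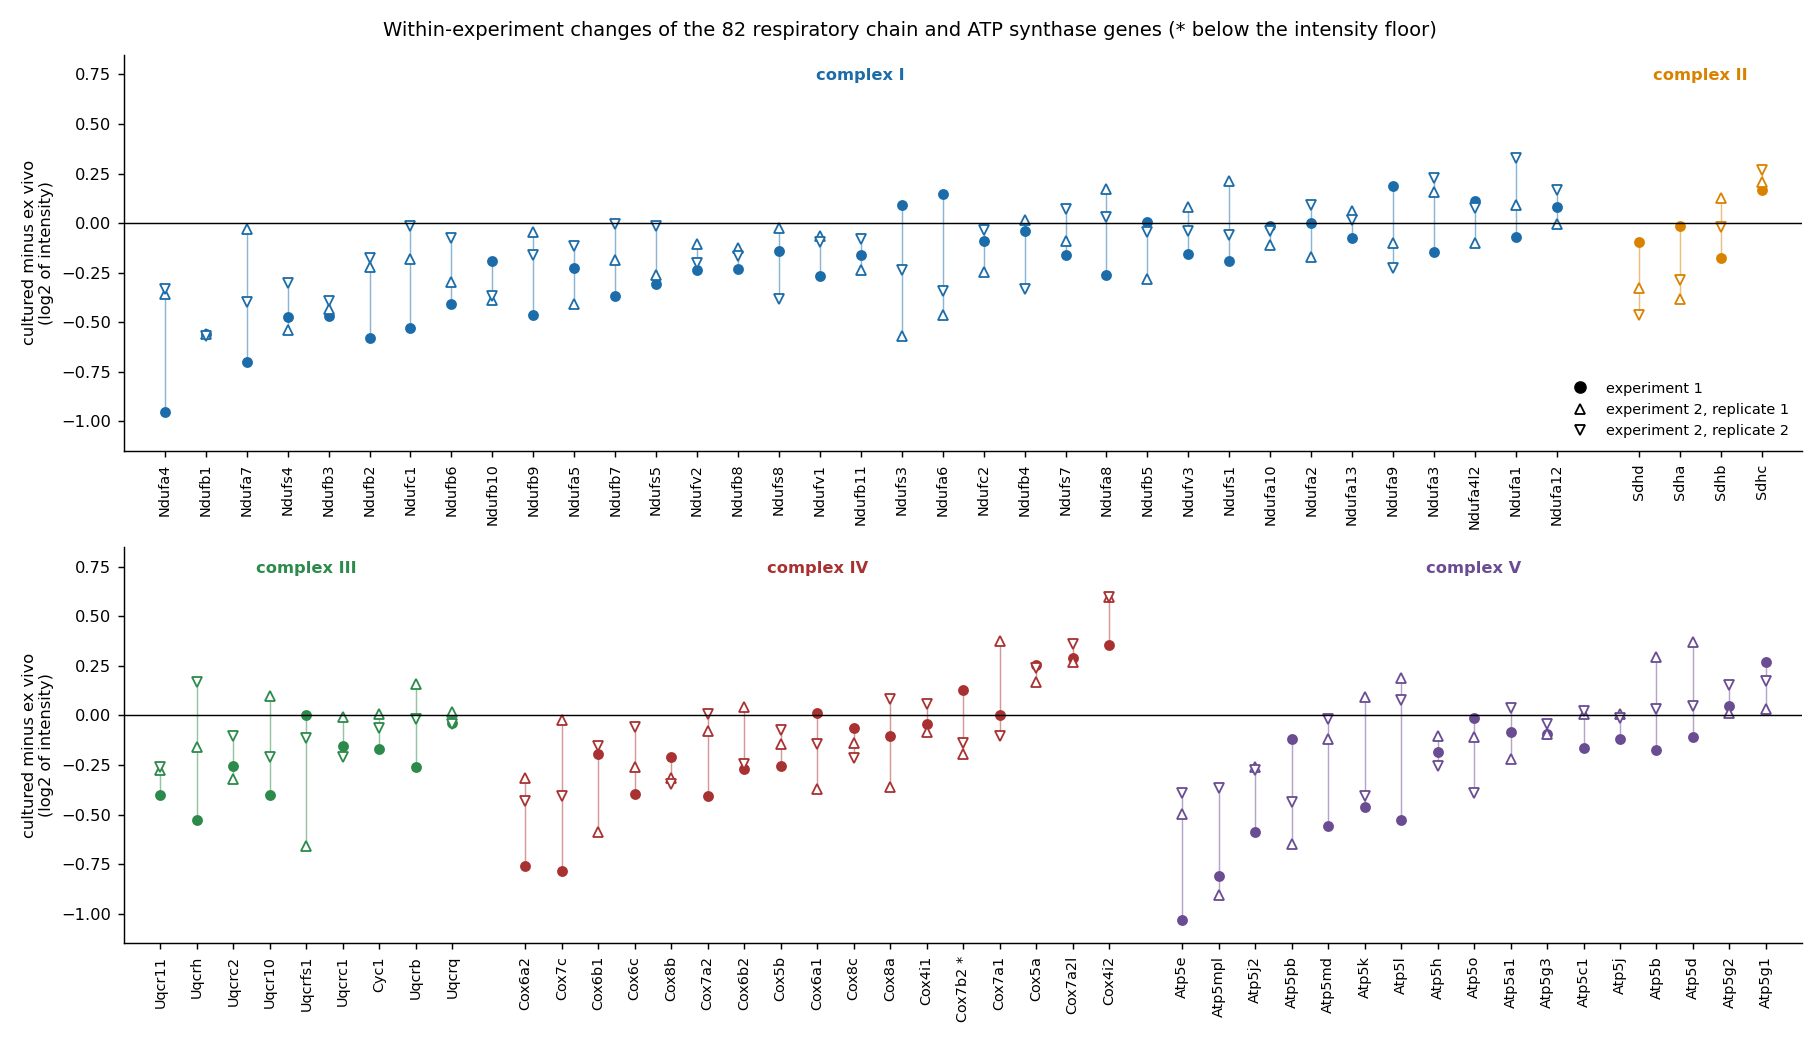
Cultured minus ex vivo difference in log2 intensity (vertical axis) for each of the 82 genes (horizontal axis, ordered within a complex by their mean change), as a filled circle for experiment 1 and open triangles for the cultured arrays of experiment 2; a vertical line joins the 3 values. More marks lie below zero than above it, the lowest is Atp5e in experiment 1 at -1.03, and the highest are those of Cox4i2 in experiment 2 at 0.60.

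Complex I, which oxidises NADH, was lower in all 3 changes for 20 of its 35 genes and higher in all 3 for 0. The other 15 were mixed. The median change was -0.19, -0.13 and -0.08. The split was uneven over its gene families. Of the 11 Ndufb genes, whose products are accessory subunits of the membrane arm, 9 were lower in all 3 changes, with medians of -0.37, -0.23 and -0.16. Of the 13 Ndufa genes 4 were lower in all 3, with medians of -0.07, -0.10 and 0.01. These families were set apart after the values had been seen, and the difference between them was not tested.

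Ndufb1, a small accessory subunit, read 7.79 and 7.47 ex vivo and 7.23, 6.91 and 6.90 in culture, experiment 1 being first in each case here and below. The groups did not overlap, and the 3 changes were nearly equal at -0.56, -0.56 and -0.57. With the block the fitted change was -0.56 (SE 0.10, 95% interval -0.82 to -0.31, limma's adjusted p 0.0691). Ndufb3, also an accessory subunit and named after its values were seen, also had separate groups, at 10.73 and 10.57 ex vivo and at 10.26, 10.14 and 10.18 in culture. Its fitted change was -0.44 (SE 0.10, limma's adjusted p 0.115).

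Ndufa4 was first assigned to complex I and is now placed in complex IV, but by its symbol it is counted here with complex I. It read 9.16 ex vivo and 8.21 in culture in experiment 1, against 9.40, 9.04 and 9.07 in experiment 2. The groups did not overlap, but the change was -0.95 in experiment 1 and only -0.36 and -0.33 in experiment 2. Its fitted change was -0.61 (95% interval -1.01 to -0.20, limma's adjusted p 0.142). Its paralog Ndufa4l2, known as a target of the hypoxia-inducible factor HIF, read 8.17 and 7.74 ex vivo and 8.28, 7.64 and 7.81 in culture, so the groups overlapped and the changes differed in sign.

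The largest positive mean changes in complex I belonged to Ndufa12 and Ndufa1, both accessory subunits, and were small. Ndufa12 gave changes of 0.08, -0.0029 and 0.17. Ndufa1 read 12.64 and 12.76 ex vivo and 12.57, 12.85 and 13.09 in culture, and the groups overlapped. Among the core subunits that carry electrons, Ndufs1, which holds iron-sulfur clusters, read 10.10 and 9.73 ex vivo and 9.91, 9.94 and 9.67 in culture, and the groups overlapped. Ndufv1, which binds NADH and FMN, read 10.96 and 10.63 ex vivo and 10.70, 10.56 and 10.54 in culture, with changes of -0.26, -0.07 and -0.09. Over the 6 core genes measured, 3 were lower in all 3 changes and 0 were higher.

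**Figure D2:**
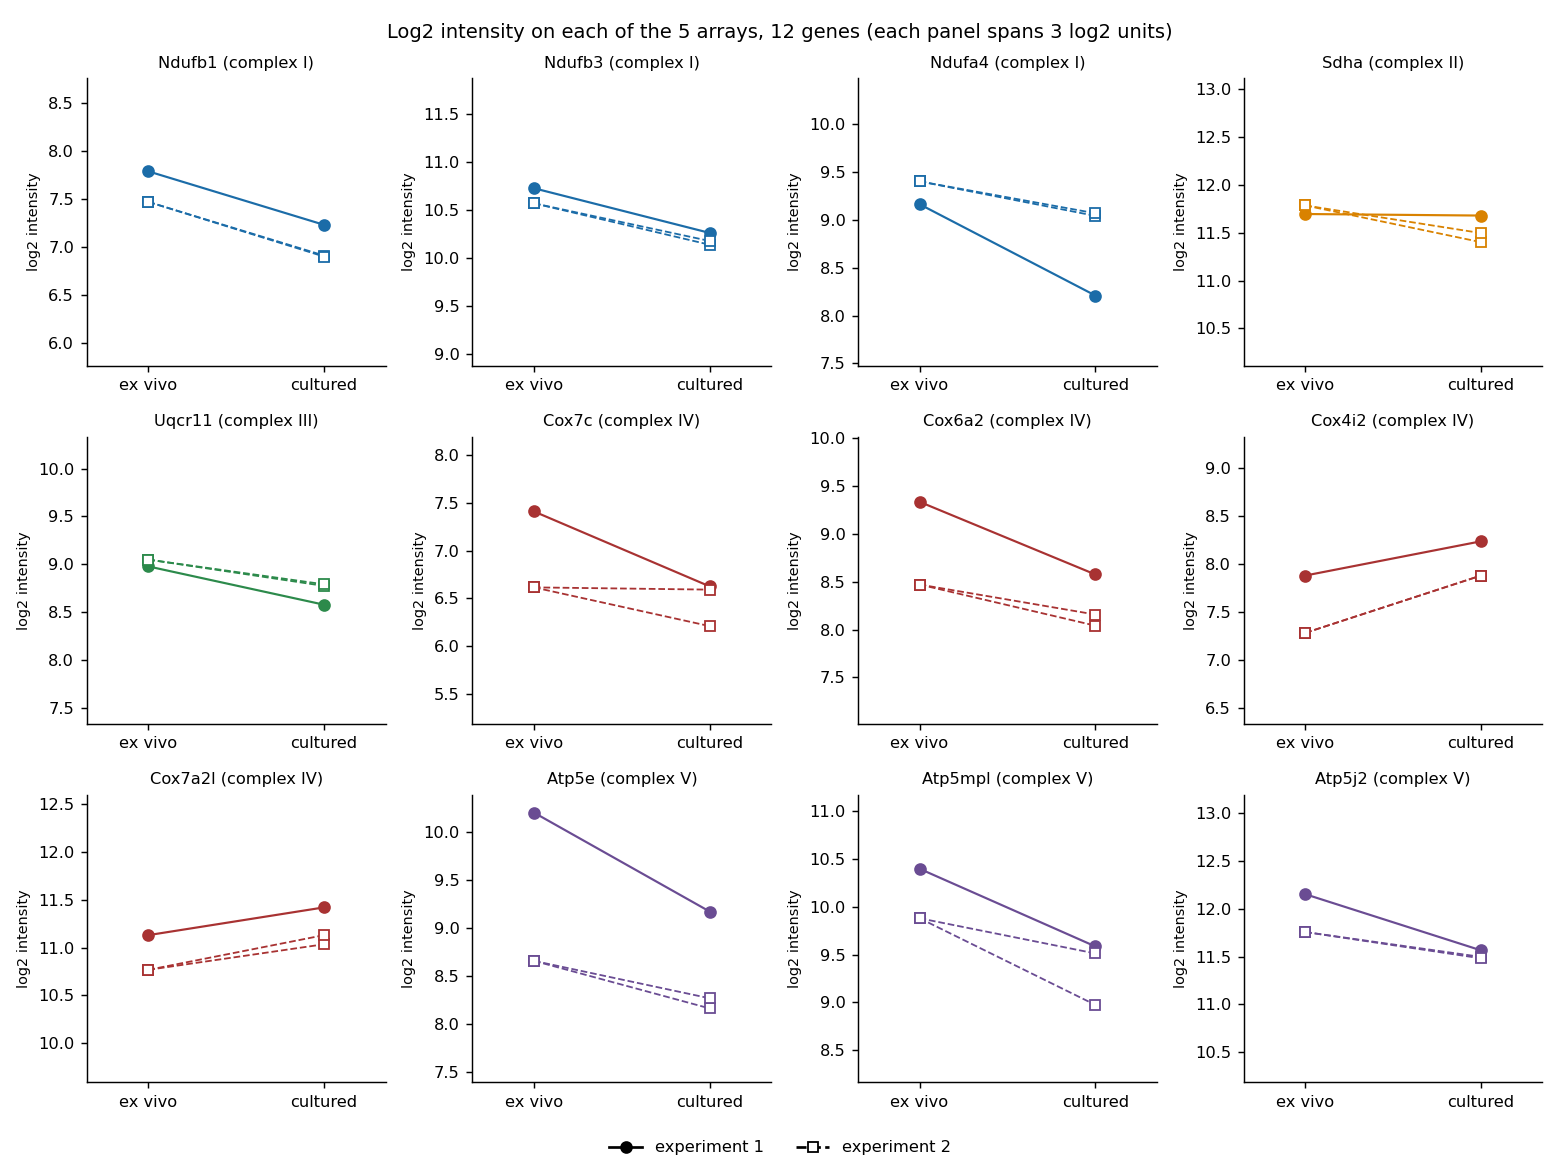
Log2 intensity (vertical axis) of 12 genes in ex vivo and cultured PCs, with experiment 1 as filled circles and solid lines and experiment 2 as open squares and dashed lines; each panel spans the same height in log2 units and levels are not comparable between panels. Ndufb1 and Ndufb3 show near-parallel lines in both experiments, Ndufa4 and Atp5e slope more steeply in experiment 1, and Cox4i2 and Cox7a2l slope upward.

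Complex II is succinate dehydrogenase, the enzyme that the respiratory chain shares with the citric acid cycle. Its medians were -0.06, -0.10 and -0.16 over 4 genes. Sdha, the flavoprotein that oxidises succinate, read 11.69 and 11.78 ex vivo and 11.68, 11.40 and 11.50 in culture. The groups did not overlap, although the change in experiment 1 was only -0.02. Its 3 other probe sets did not share this direction, with fitted changes of 0.02, 0.32 and 0.47 with the block. The first of them was nearly as bright and was mixed, with changes of 0.11, -0.10 and -0.01. The others were dim, reading from 5.81 to 7.08 and from 6.72 to 7.55, where the floor is 5.64. Sdhb, the iron-sulfur subunit, read 11.12 and 10.92 ex vivo and 10.95, 11.04 and 10.90 in culture and showed no common direction.

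The membrane anchors of complex II had changes of opposite sign. Sdhc read 10.00 and 10.85 ex vivo and 10.17, 11.06 and 11.12 in culture, higher within both experiments. Sdhd read 10.19 and 9.74 ex vivo and 10.09, 9.41 and 9.28 in culture, lower within both. In both genes the experiments were far enough apart for the groups to overlap. For Sdhc this depended on the probe set, since its other probe set gave 0.11, -0.65 and -0.45. For Sdhd the other probe set gave 0.05, -0.63 and -0.24. Neither gene passed the test for culture with any probe set. The fitted changes were 0.21 for Sdhc (95% interval -0.05 to 0.47) and -0.27 for Sdhd (95% interval -0.58 to 0.05).

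Complex III passes electrons from ubiquinol to cytochrome c. Of its 9 genes 3 were lower in all 3 changes, 0 were higher and 6 were mixed, and the medians were -0.26, -0.01 and -0.10. Uqcr11, a small subunit, read 8.98 and 9.05 ex vivo and 8.58, 8.77 and 8.79 in culture. The groups did not overlap, and the fitted change was -0.32 (SE 0.11, limma's adjusted p 0.203). Uqcrh, the hinge protein, gave changes of -0.53, -0.16 and 0.17.

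Among the catalytic subunits of complex III the groups overlapped. Cyc1, cytochrome c1, read 10.41 and 10.49 ex vivo and 10.24, 10.50 and 10.43 in culture. Uqcrfs1, the Rieske iron-sulfur protein, read 10.51 and 10.35 ex vivo and 10.51, 9.69 and 10.24 in culture, where 1 array of experiment 2 stood apart by -0.66 from its ex vivo array. Uqcrc1, a core protein, was lower by -0.15, -0.01 and -0.21. Uqcrb and Uqcrq, both small subunits of the complex, had the least negative mean changes, at -0.10 and -0.02.

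Complex IV, cytochrome c oxidase, has several subunits with a ubiquitous and a tissue-restricted isoform. Of its 16 tested genes 7 were lower in all 3 changes, 3 were higher and 6 were mixed. Over all 17 genes the medians were -0.10, -0.14 and -0.10. The main isoform of subunit 4, Cox4i1, read 12.14 and 12.17 ex vivo and 12.10, 12.08 and 12.22 in culture, so the groups overlapped. Cox4i2, the isoform known from lung and from hypoxia, read 7.88 and 7.28 ex vivo and 8.24, 7.88 and 7.88 in culture. The equal values are as deposited. Cox4i2 was higher in culture within both experiments, but the groups touched because the experiments differed in level. Its fitted change was 0.50 (SE 0.11, 95% interval 0.21 to 0.78, limma's adjusted p 0.108), the highest of the 81 genes.

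Cox7a2l, a relative of subunit 7a that helps to assemble respiratory supercomplexes, was higher by 0.29, 0.27 and 0.36. Its values were 11.13 and 10.77 ex vivo and 11.42, 11.03 and 11.13 in culture, which overlapped between the experiments. The fitted change was 0.30 (SE 0.11, limma's adjusted p 0.223). Of its other probe sets, 1 was also higher in each change, by 0.23, 0.03 and 0.28, and the other gave 0.28, -0.14 and 0.28. The ubiquitous form Cox7a2 gave changes of -0.41, -0.08 and 0.01. The muscle form Cox7a1 read 6.16 on both ex vivo arrays and 6.16, 6.53 and 6.06 in culture.

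The largest negative mean changes among the Cox genes of complex IV were those of Cox6a2 and Cox7c. Cox6a2, the heart and muscle isoform of subunit 6a, read 9.33 and 8.47 ex vivo and 8.58, 8.16 and 8.04 in culture. Each cultured array was below its own ex vivo array, but the groups overlapped. Its fitted change was -0.54 (SE 0.13, limma's adjusted p 0.124), and its other probe set gave 0.11 in the same fit. That probe set was dim, reading from 6.43 to 6.84. Cox6a1, the ubiquitous isoform, gave changes of 0.01, -0.37 and -0.15. Cox7c, a ubiquitous subunit, read 7.41 and 6.62 ex vivo and 6.63, 6.59 and 6.21 in culture, again with overlap, and its changes were unequal at -0.78, -0.02 and -0.40.

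Cox5a, a ubiquitous subunit that was named after its values were seen, was the other gene of complex IV above zero in all 3 changes, at 11.07 and 10.87 ex vivo and 11.33, 11.04 and 11.11 in culture. The groups overlapped between the experiments.

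The remaining isoforms of complex IV also stayed short of the test. Cox6b1 gave changes of -0.19, -0.59 and -0.16, and its testis form Cox6b2 -0.27, 0.04 and -0.25. Cox8a, the ubiquitous form of subunit 8, gave changes of -0.10, -0.36 and 0.09. The muscle form Cox8b gave changes of -0.21, -0.32 and -0.35, and the testis form Cox8c -0.06, -0.14 and -0.21. Among the Cox genes, the last was the one whose cultured arrays all lay below both ex vivo arrays, at 6.95, 6.98 and 6.91 against 7.02 and 7.12. These levels too were low beside the floor of 5.64.

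Complex V makes ATP with a catalytic F1 head, a membrane rotor made of c subunits, a peripheral stalk and several small membrane proteins. Its medians were -0.17, -0.10 and -0.02 over 17 genes, of which 8 were lower in all 3 changes and 2 higher. The 5 F1 genes had medians of -0.17, 0.01 and 0.03, and the 5 small membrane genes had medians of -0.56, -0.12 and -0.28. Of the 4 genes of the peripheral stalk 3 were lower in all 3 changes. The stalk gene Atp5pb, the b subunit, was named after its values were seen and read 11.35 and 11.36 ex vivo and 11.24, 10.71 and 10.92 in culture, without overlap.

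The main subunits of the F1 head had overlapping groups. Atp5a1, the alpha subunit, read 12.18 and 12.56 ex vivo and 12.10, 12.34 and 12.60 in culture. Atp5b, the beta subunit that holds the catalytic sites, read 11.69 and 11.80 ex vivo and 11.52, 12.09 and 11.83 in culture. The fitted changes were -0.09 and 0.02 with 95% intervals of -0.40 to 0.22 and -0.34 to 0.38.

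Atp5e, the epsilon subunit of the central stalk, had the most negative mean change of the 82 genes. It read 10.21 and 8.66 ex vivo and 9.17, 8.16 and 8.27 in culture. Every cultured array lay below its own ex vivo array, by -1.03, -0.50 and -0.39, but the experiments were so far apart that the groups overlapped. The fitted change was -0.70 (SE 0.16, 95% interval -1.10 to -0.29, limma's adjusted p 0.110). Atp5e was read from its one probe set, of a type that can also match related transcripts.

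Atp5mpl, a small proteolipid of the membrane part, came next. It read 10.40 and 9.88 ex vivo and 9.59, 8.97 and 9.51 in culture, without overlap. Its fitted change was -0.71 (SE 0.18, 95% interval -1.17 to -0.25, limma's adjusted p 0.132). Atp5j2, the f subunit, which was named after its values were seen, read 12.15 and 11.76 ex vivo and 11.57, 11.50 and 11.48 in culture, also without overlap, with a fitted change of -0.40 (SE 0.12, limma's adjusted p 0.178).

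**Figure D3:**
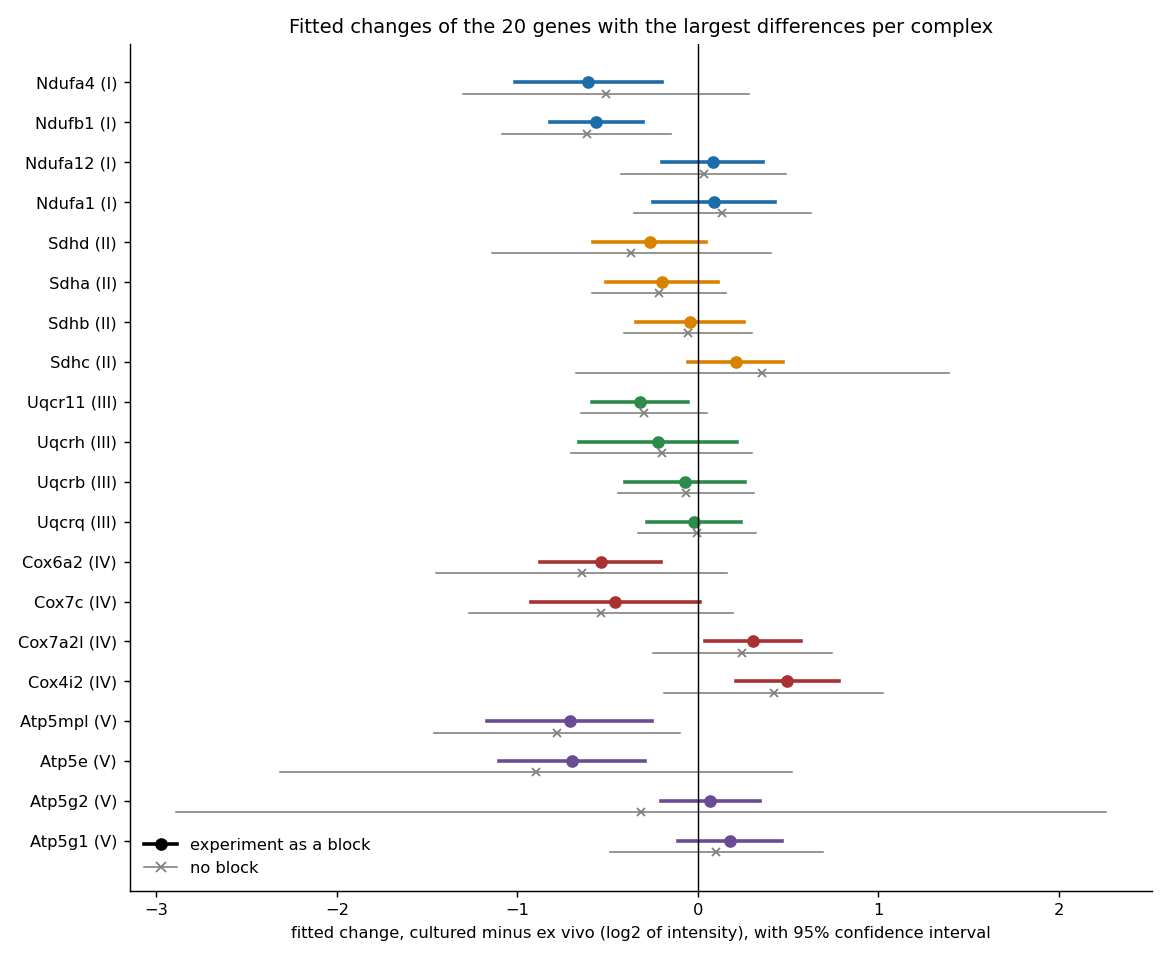
Fitted change, cultured minus ex vivo, in log2 intensity (horizontal axis) with its 95% confidence interval for the genes with the largest negative and positive mean changes of each complex, with the experiment as a block (coloured circles) and without it (grey crosses). With the block the intervals of Ndufa4, Ndufb1, Uqcr11, Cox6a2, Atp5mpl and Atp5e end below zero and those of Cox4i2 and Cox7a2l begin above it, but no gene had an adjusted p under 0.05; the grey interval of Atp5g2 spans from -2.89 to 2.26.

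The c subunit of the rotor is encoded by Atp5g1, Atp5g2 and Atp5g3, which yield the same mature protein from different precursors and have promoters of their own. Atp5g1 read 9.91 and 9.56 ex vivo and 10.18, 9.60 and 9.74 in culture. Atp5g3 read 12.26 and 12.20 ex vivo and 12.17, 12.11 and 12.16 in culture, which did not overlap, although the changes were only -0.10, -0.10 and -0.04. Atp5g2 read 11.13 ex vivo and 11.18 in culture in experiment 1, but 8.81, 8.82 and 8.96 in experiment 2. Cultured minus ex vivo was only 0.05, 0.01 and 0.15, but the experiments lay far apart.

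The promoters of these 3 genes are shown because the genes give one protein yet differed in how far they varied between the experiments. Each is the stretch of 250 bases before the start of transcription, 5′ to 3′ on the gene's strand, from RefSeq on GRCm38.p6. They lie at chr11:96075632-96075881, chr15:102671048-102671297 and chr2:73911327-73911576, all on the minus strand. Capitals mark, on either strand, the core GCGCATGC of nuclear respiratory factor NRF1 and the core ACGTG of hypoxia response elements, which also lies within the E-box CACGTG. Matches on both strands may overlap and then form one longer run of capitals.
Atp5g1: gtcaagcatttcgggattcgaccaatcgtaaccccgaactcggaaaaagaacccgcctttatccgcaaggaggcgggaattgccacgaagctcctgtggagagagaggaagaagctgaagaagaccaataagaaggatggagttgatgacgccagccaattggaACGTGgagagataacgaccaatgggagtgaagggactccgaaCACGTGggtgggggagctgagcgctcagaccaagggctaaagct
Atp5g2: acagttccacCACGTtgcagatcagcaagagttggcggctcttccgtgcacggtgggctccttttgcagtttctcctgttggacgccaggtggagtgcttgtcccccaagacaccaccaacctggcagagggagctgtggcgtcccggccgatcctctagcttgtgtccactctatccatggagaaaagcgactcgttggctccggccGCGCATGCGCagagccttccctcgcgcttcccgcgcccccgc
Atp5g3: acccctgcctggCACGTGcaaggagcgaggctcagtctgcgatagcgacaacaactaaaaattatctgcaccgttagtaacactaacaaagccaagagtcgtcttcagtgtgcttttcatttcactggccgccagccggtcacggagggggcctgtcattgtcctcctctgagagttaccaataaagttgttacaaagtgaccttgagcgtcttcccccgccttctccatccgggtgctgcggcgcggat
Letters of the hypoxia core stood in all 3 promoters, and letters of the NRF1 core in that of Atp5g2.

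For comparison, the promoters of Ndufb1 (chr12:101975739-101975988, minus strand) and Atp5e (chr2:174464102-174464351, minus strand) are shown in the same way, because these genes had the lowest adjusted p with the block and the most negative mean change. Capitals mark the hypoxia core in Ndufb1, and the core CCGGAAG of ETS factors such as GABP, here on the opposite strand, in Atp5e.
Ndufb1: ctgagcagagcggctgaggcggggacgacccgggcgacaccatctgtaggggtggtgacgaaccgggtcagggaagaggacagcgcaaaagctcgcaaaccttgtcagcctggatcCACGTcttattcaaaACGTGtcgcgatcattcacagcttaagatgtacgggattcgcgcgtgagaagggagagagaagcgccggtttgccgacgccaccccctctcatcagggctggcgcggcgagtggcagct
Atp5e: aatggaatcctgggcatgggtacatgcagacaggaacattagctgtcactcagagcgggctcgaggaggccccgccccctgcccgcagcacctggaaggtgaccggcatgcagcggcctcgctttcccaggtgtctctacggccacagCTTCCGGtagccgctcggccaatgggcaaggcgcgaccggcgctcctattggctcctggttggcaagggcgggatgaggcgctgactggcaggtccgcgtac
Neither held the NRF1 core.

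RefSeq promoters were on hand for 66 of the 82 genes, in 71 windows of 300 bases that run from 250 bases before to 50 bases after a start. The NRF1 core GCGCATGC stood in 12.7% of these windows, against 4.72% of the 13805 windows of tested genes and 2.71% of all 32851 windows. The YY1 core AAGATGGC also stood in 12.7%, against 4.05% and 2.75%. The ETS core CCGGAAG stood in 23.9%, against 15.7% and 8.86%, and the hypoxia core ACGTG in 26.8%, against 24.3% and 19.6%. By complex, the YY1 letters stood in 18.2% of 33 windows of complex I and 16.7% of 18 windows of complex V. They stood in none of the 3, 5 and 12 windows of complexes II, III and IV, which are too few for a comparison. These are counts of letters on both strands, and binding was not measured.

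Many of these genes differed between the experiments, as did many genes across the array. With culture as a covariate, 27 of 81 genes (33.3%) passed limma's test between experiment 2 and experiment 1. Over all 13578 tested genes, 3413 passed. Of the 27 genes, 9 were higher in experiment 2, close to the 11.0% of all tested genes that were higher. The other 18 were lower, where 14.1% of all tested genes were lower. Complex V held 6 of the lower genes and 0 of the higher ones. Complex I held 9 lower and 5 higher genes, complex IV 2 and 2, complex II 1 and 1, and complex III 1 higher gene, Uqcrc1. The count rested on few arrays: without either array of experiment 1, or without the ex vivo array of experiment 2, it was 0, and without the first or second cultured array of experiment 2 it was 18 or 9.

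Atp5g2 had the largest such difference, at -2.30 (SE 0.11, limma's adjusted p 0.00233). It rests on the brightest probe set alone, because the others of Atp5g2 lay below the floor on every array and were not tested. Next came Atp5e at -1.21 (limma's adjusted p 0.00719) and 2 genes that were named for this difference after their values had been seen. Ndufb10, an accessory subunit of complex I, differed by -1.12, and Atp5k, the e subunit of complex V, by -1.05. On the higher side, Sdhc differed by 0.89 (limma's adjusted p 0.00541) and Uqcrc1 by 0.75 (limma's adjusted p 0.0106). For Atp5g2 the difference was -2.32 in ex vivo and -2.29 in cultured PCs. For Ndufa4 it was 0.24 ex vivo and 0.85 in culture.

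Other probe sets of the same genes were compared. Of the 27 genes, 15 had further tested probe sets, 24 in all. The sign was the same for 18 and opposite for 6, with 7 past the test in the same direction and 1 in the opposite one. The last was the other probe set of Sdhc, at -0.87 (limma's adjusted p 0.0222). Both further probe sets of Atp5k passed, at -0.70 and -0.82. Signal along Actb and Gapdh transcripts, read from control probe sets, moved with the experiments too. The log2 ratio of 3' to 5' signal was 0.31 and 0.77 for Actb and 0.74 and 0.63 for Gapdh in experiment 1, against -0.12 to -0.01 and 0.28 to 0.34 in experiment 2. For Actb the ratio thus also moved with culture inside experiment 1, from 0.31 to 0.77, while for Gapdh it moved the other way, from 0.74 to 0.63. Experiment 1 gave the lowest changes of Atp5e (-1.03) and Ndufa4 (-0.95). The part of RNA quality in the differences between experiments and in the changes with culture was not tested. In the interaction of culture and experiment, limma called 0 of 81 genes, with 3 (3.7%) at an unadjusted p under 0.05 against 5.77% of all tested genes.

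**Figure D4:**
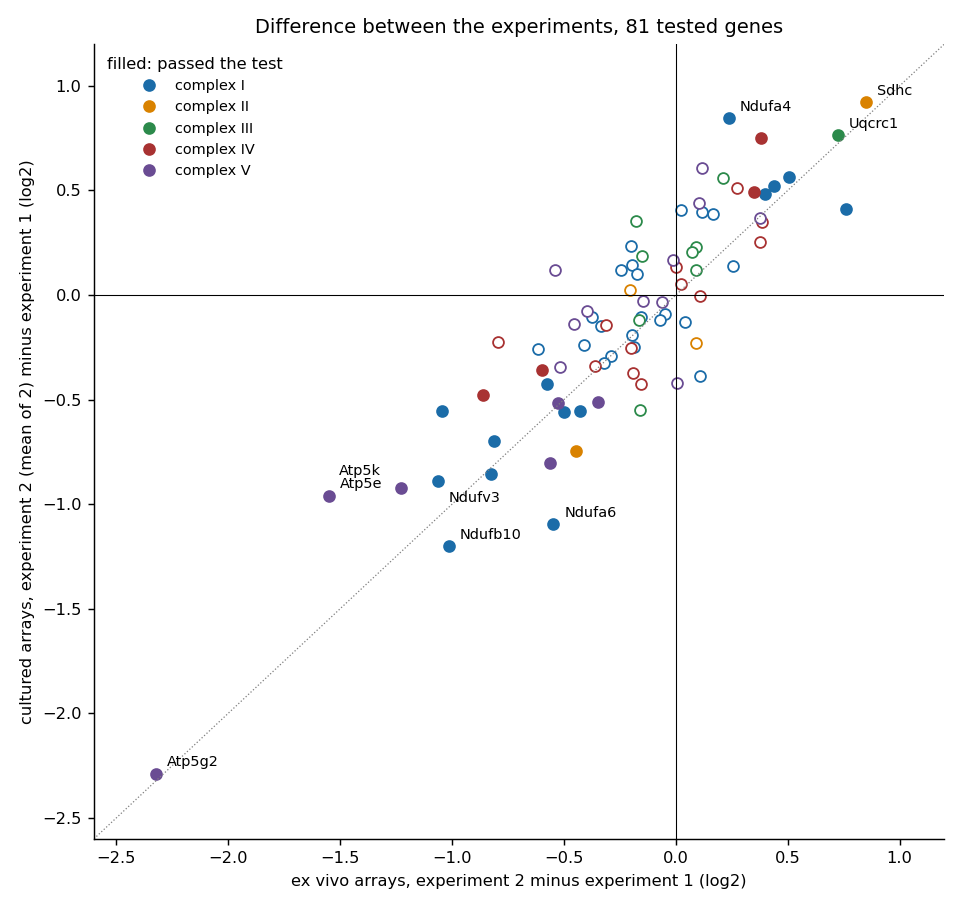
Experiment 2 minus experiment 1 in log2 intensity for 81 genes, in ex vivo PCs (horizontal axis, 1 array each) and in cultured PCs (vertical axis, mean of 2 arrays minus 1 array), coloured by complex, with filled circles for the 27 genes that passed limma's test between experiments and a dotted line of equality. Atp5g2 stands alone at -2.32 and -2.29, and the filled circles of complex V all lie below zero on both axes.

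Of the genes that work beside the respiratory chain, the mitochondrial ribosome was the longest list. Of 74 tested genes of the mitochondrial ribosome, which translates the subunits encoded in mitochondrial DNA, 44 were lower in all 3 changes and 8 higher, with medians of -0.22, -0.15 and -0.16. For these signs the shares of all tested genes, 29.7% and 18.9%, apply here and to the lists that follow. None passed limma's test with the block, and 18 (24.3%) had an unadjusted p under 0.05, where all tested genes gave 17.3% for this and the following lists. Mrps6, a small subunit protein, had the largest difference in this list and ran the other way, at 8.24 and 7.24 ex vivo and 8.58, 8.51 and 8.67 in culture. Mrpl27, of the large subunit, read 9.01 and 9.25 ex vivo and 8.46, 8.60 and 8.72 in culture.

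Of 18 tested electron carriers and coupled enzymes, 10 were lower in all 3 changes and 2 higher, and 0 passed with the block, with 2 (11.1%) at an unadjusted p under 0.05. Coq7, a hydroxylase of ubiquinone synthesis, gave changes of -0.64, -0.99 and -0.68 (limma's adjusted p 0.0709 with the block). Etfb, a subunit of the flavoprotein that feeds electrons from fatty acids into the chain, gave changes of -0.20, -0.55 and -0.59. Cycs, cytochrome c, named after its values were seen, read 11.42 and 11.34 ex vivo and 11.04, 10.97 and 11.26 in culture. Of 16 tested citric acid cycle genes, 7 were lower and 1 higher, and 0 passed, with 3 (18.8%) at an unadjusted p under 0.05. Ogdh and Dlst, which belong to the same 2-oxoglutarate dehydrogenase complex, gave changes of -0.27, -0.82 and -0.88 and of -0.11, -1.06 and -0.47.

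The regulators of mitochondrial biogenesis gave 5 lower and 2 higher genes of 15 tested, with 0 past the test and 1 (6.67%) at an unadjusted p under 0.05. Tfb1m, a methyltransferase of mitochondrial ribosomal RNA, gave changes of -0.48, -0.59 and -0.39. Ppargc1b, a coactivator of mitochondrial genes, gave changes of -0.33, -0.58 and -0.13. Nrf1, a transcription factor of respiratory genes that was named after its values were seen, read 8.33 on 4 arrays and 8.40 on the other.

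HIF-linked mitochondrial genes were the list of this kind that held a called gene. Of 9 tested, 4 were higher in all 3 changes and 2 lower. With the block, 4 (44.4%) had an unadjusted p under 0.05 in limma's test, against 17.3% of all tested genes. That count mixes directions and is not the same set as the 4 higher genes. It holds Fundc1, which was lower at -0.27, -0.31 and -0.53. It leaves out Higd1a, which was higher at 0.14, 0.16 and 0.50. Bnip3, a mitophagy receptor and HIF target, read 7.83 and 7.78 ex vivo and 9.68, 9.91 and 10.08 in culture. It rose by 2.06 in the fit with the block (limma's adjusted p 0.00551), and its adjusted p without the block was 0.0593. Pdk1, a kinase that restrains pyruvate dehydrogenase and was named after its values were seen, gave changes of 0.96, 0.00 and 0.41 and did not pass. Cox4i2 and Ndufa4l2, which are members of both this list and the respiratory chain, did not pass either.

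**Figure D5:**
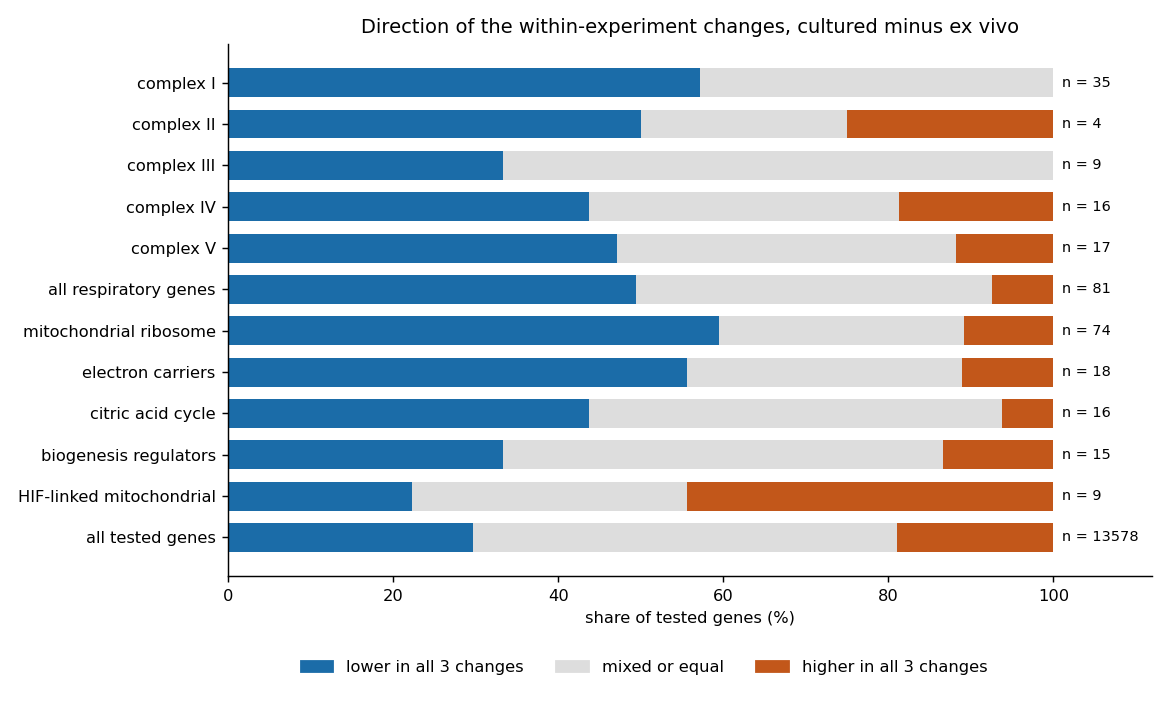
Share of tested genes (horizontal axis, percent) that were lower in all 3 within-experiment changes, higher in all 3, or mixed, for complexes I to V, all respiratory genes, the other mitochondrial lists and all tested genes, with the number of genes beside each bar. Lower genes make up 20 of 35 in complex I and 44 of 74 in the mitochondrial ribosome, beside 29.7% of all tested genes. HIF-linked genes show the opposite balance with 4 of 9 higher, among them Cox4i2, which is also counted in complex IV.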

How the data were processed

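RNA from mouse BM PCs, ex vivo (2 arrays) or cultured (3 arrays), was hybridised to Affymetrix mouse GeneChips. Signals were summarised by the authors with RMA in the affy package for R; GCOS is credited to the submitters' processing notes. The sources used here give no version of affy or RMA and no build. As deposited, each value is a linear intensity (lowest 4.94, highest 26947), and array medians ran from 87.05 to 94.14. The deposited intensities were converted to log2 here. RMA values of different arrays can be equal, and such ties were kept. Arrays give no read depth, and their number limits the precision.

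Groups and experiment numbers came from the labels. Of 45101 probe sets, 64 controls were left out, and 34945 carry 1 gene symbol. The name rule matched 165 probe sets with 1 symbol, and 9 with several were left out. Of the 82 genes, 48 had several probe sets, and 19 were read from a type that can match related transcripts. Symbols were checked against RefSeq (GRCm38.p6), where all 82 matched.

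A floor of 50 on 2 or more arrays kept 30477 probe sets, which entered limma 3.58.1 under R 4.3.3 (lmFit, eBayes, two-sided, Benjamini-Hochberg over all of them, adjusted p under 0.05). Fits were culture alone, culture with the experiment as a block (from which the difference between experiments was also taken), and their interaction, which leaves 1 residual degree of freedom. Pairing follows the experiment number that the labels give in both groups. Deviations of the cultured arrays from their group mean correlated with those of the ex vivo array of the same number at 0.749, 0.558 and 0.719 over the tested probe sets, and these values are not independent because the 2 ex vivo deviations are each other's negative. Intervals cover 95%. The fit was also run on simulated data in which the noise was independent on each array. That run therefore does not cover arrays that are technical replicates.

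Named were the 2 most negative and 2 most positive mean changes of each complex, complex II, isoform sets, core subunits, and in other lists the called genes or the 2 with the largest change. Others are marked where named. Genes and lists were chosen with earlier results of these data known. Motif cores were sought on both strands of RefSeq promoters. Alternatives were the block, averaging, filters, normalization, moderation, probe set choice and leaving out arrays.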

Additional observations from a re-analysis of the deposited data

How the results depend on the processing

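No respiratory gene passed the test for culture under any of the alternatives, which were the experiment as a replicate block, averaged arrays, other filters and normalizations, a trend in the moderation and the removal of each array. The number of all probe sets that passed was 14 and moved more: 550 with the block, 0 with the experiment 2 arrays averaged, 187 with averaging and the block, 5 with no filter, 31 with a floor of 100 and 22 with the trend. It ran from 0 to 257 when an array was left out, the highest being without the cultured array of experiment 1, and with the block it was 271 or 153 without the first or second cultured array of experiment 2. The 27 genes that differed between experiments became 17 with averaging and 0 to 18 with an array left out. Across 7 settings added after seeing the data, genes lower in all changes ran from 38 to 51 and genes higher in all changes from 4 (median centring) to 14, the latter from 6 to 14 when a cultured array was left out. All tested genes moved too, from 29.7% to 43.0% for lower and from 15.4% to 31.8% for higher, over the normalizations and left-out arrays.

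Of 80 settings of the complex medians, 77 stayed negative. Some of these could not move a median. The floor removes only Cox7b2 of complex IV, and keeping classical subunits only alters no complex but I and IV. The complex II median of experiment 1 turned positive with the mean of all probe sets (0.059), without probe set types that can match related transcripts (0.016) and with the second brightest probe set (0.11), and under the same settings its experiment 2 median was -0.051, -0.39 and -0.44. In experiment 1 the complex IV median was -0.14 with quantile normalization, -0.15 with median centring or past the floor only, and -0.19 for classical subunits only or the second brightest probe set. In experiment 2 it was -0.17 with median centring or without the cross-matching types, -0.10 with the mean of all probe sets, -0.16 for classical subunits and -0.082 with the second brightest probe set, and between -0.14 and -0.10 with a cultured array left out. That of complex I in experiment 2 lay between -0.13 and -0.078 in that case, and that of complex V in experiment 1 was -0.058 with the second brightest probe set.

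Of the 20 most positive and negative genes, 11 kept their direction in each setting. Atp5g2 turned positive with the block (0.069), with averaging (0.066), with both (0.066) and with the block and 1 cultured array of experiment 2 left out (0.10 and 0.032). Without the block it ran from -1.48 without the ex vivo array of experiment 2 to 0.85 without that of experiment 1. In fits without the block, Ndufa12 turned negative with median centring (-0.018) and other probe sets (-0.0036 and -0.0011). Within the experiments every change of these Ndufa12 probe sets was positive, and with the block they gave 0.067 and 0.074. Uqcrq turned positive without the block with quantile normalization (0.018) and another probe set (0.31). Other probe sets, in the fit without the block, also reversed Sdha (0.44 and 0.51), Sdhc (-0.41) and Cox6a2 (0.066). The probe sets that reversed Uqcrq, Sdha and Cox6a2 were dim beside the ones used. With 1 array left out, values ran from -0.11 to 0.18 for Ndufa12, -0.16 to 0.046 for Sdhb, -0.069 to 0.78 for Sdhc, -0.14 to 0.010 for Uqcrb, -0.051 to 0.041 for Uqcrq and -0.070 to 0.28 for Atp5g1. In each of these ranges the change of sign came without an ex vivo array, and for Ndufa12, Uqcrq and Atp5g1 also without the cultured array of experiment 1. Without the block, experiment 1 gives 1 of 2 ex vivo and 1 of 3 cultured arrays, so a difference between experiments enters the change. Leaving out an array alters this balance. For Atp5g2, where the experiments differed by -2.30, the change was -0.32 without the block and 0.069 with it. Other causes of these reversals were not tested.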

Other observations

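Assembly factors, which build the complexes but are not part of them, were not a single picture. Of 49 tested, 20 were lower in all 3 changes, 7 were higher and 0 passed limma's test with the block, with 10 (20.4%) at an unadjusted p under 0.05 against 17.3% of all tested genes. The 4 factors of complex II were each lower in all 3 changes. Among them Sdhaf4 read 9.29 and 9.43 ex vivo and 8.68, 8.73 and 9.02 in culture (limma's adjusted p 0.105). Cox16, a factor of complex IV, read 7.32 and 9.07 ex vivo and 8.46, 9.56 and 9.98 in culture, higher within both experiments by 1.14, 0.48 and 0.91 (limma's adjusted p 0.0857 with the block). Outside the naming rule and chosen after their values were seen, Coa3, also of complex IV, gave -0.42, -0.82 and -0.52, and Ndufaf2, of complex I, gave -0.64, -0.65 and -0.30.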
